A study of Mus musculus with 15 samples.

Results

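The S639G substitution of Rbm20, carried by the mouse line called G-line, was compared in its homozygous state (G-line HOM) with wild type (WT) in the left ventricle by sequencing of total RNA. The comparison holds the 3 libraries titled G-line HOM and the 3 titled WT, chosen by title alone, 6 of the 15 libraries that the labels name. All mice were C57BL/6 and 2 months old, and no treatment is named. The genotype field reads Rbm20 S639G -/- for G-line HOM, S639G +/- for the heterozygous group (G-line HET, 3 libraries) that serves as a further reference, and WT for the controls. The series also holds another allele, S637A (A-line), and asks by which mechanisms the alleles act in cardiac remodelling. In all 40174 gene symbols, WT replicates 2 and 3 held exactly the counts of A-line HOM replicates 2 and 3, so 13 distinct libraries remained, and this pair was counted once, as WT. The labels do not settle which name is right, and WT replicate 1 is the only control library whose name is not shared. Mitochondrial ribosomal RNA made up 20.2 and 20.5% of counts in the pair, 23.4% in WT replicate 1 and 15.1% in A-line HOM replicate 1. For titin (Ttn) the shares were 7.84 and 8.13%, 8.74% and 11.2%. Which name is right was not tested. Values with the pair left out therefore stand beside the results that rest on it. The labels do not say whether replicates came from separate mice, so the p-values cover only the spread among these libraries, which may be technical.

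RBM20 is an RNA-binding protein of heart and skeletal muscle nuclei that keeps chosen exons out of the transcripts of titin and of other sarcomere, calcium handling and ion channel genes. Missense changes in its stretch rich in arginine and serine are a known cause of dilated cardiomyopathy. A ventricle under load typically re-expresses natriuretic peptide and stretch genes, lays down matrix, and shifts away from the oxidation of fatty acids. Gene totals, as measured here, do not show splicing.

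Total counts were 25279202 to 26549906 per WT library and 20324529 to 29436407 per G-line HOM library. Mitochondrial ribosomal RNA made up 20.2 to 23.4% of WT counts and 10.8 to 13.5% of G-line HOM counts. Levels are given as CPM, counts per 1000000 counts of a library, scaled here with normalization factors from edgeR. The defining markers of ventricular muscle were high in all 6 libraries (summed level 143100 to 166700 CPM in WT and 156600 to 164600 CPM in G-line HOM). The atrial light chain transcript Myl7 stood out in 3 libraries of the series, WT replicate 2 at 524 CPM, G-line HOM replicate 1 at 45.8 CPM and 1 A-line HET library, which are left out where stated. In whole tissue, fewer cells of a type and less RNA per cell cannot be told apart.

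Expression differed widely between homozygous and wild-type ventricles. Of 17588 genes tested, 2306 (13.1%) were higher and 2334 (13.3%) lower in G-line HOM at an adjusted p under 0.05 (edgeR quasi-likelihood test, Benjamini-Hochberg), 26.4% in all, and 1633 (9.28%) differed by more than 2-fold. The median log2 fold change over all genes was 0.01. The CPM ranges of the 2 groups did not overlap for 3622 genes (20.6%) higher and 3704 (21.1%) lower in G-line HOM. Ranges that do not overlap were also a condition for naming some genes. The called shares, 13.1% higher and 13.3% lower, are the reference for every list count below. With mitochondrial ribosomal RNA and sex-linked genes left out of the test, 4615 genes were called, 4573 of them among the 4640. Leaving out the shared pair and counting it as A-line HOM both leave WT replicate 1 as the only WT library. Fewer genes were called in both settings, and the median log2 fold change was 0.01 in each. They differ in whether the pair, grouped with A-line HOM replicate 1, enters the estimate of spread shared by all libraries. Scaling by library totals in place of TMM moved the median to 0.17 and the split from 49.7% to 70.1% higher among 5289 calls. Those totals include the mitochondrial ribosomal RNA, 20.2 to 23.4% of WT counts and 10.8 to 13.5% of G-line HOM counts. Its part in this shift, and in the list counts given with library totals, was not tested. Rbm20 itself stood at 419, 357 and 409.9 CPM in WT and 370.4, 426 and 378 CPM in G-line HOM, with overlapping groups (-0.01 ± 0.10, adjusted p = 0.932). The allele is a point mutation, so this level does not check the labels.

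**Figure D1:**
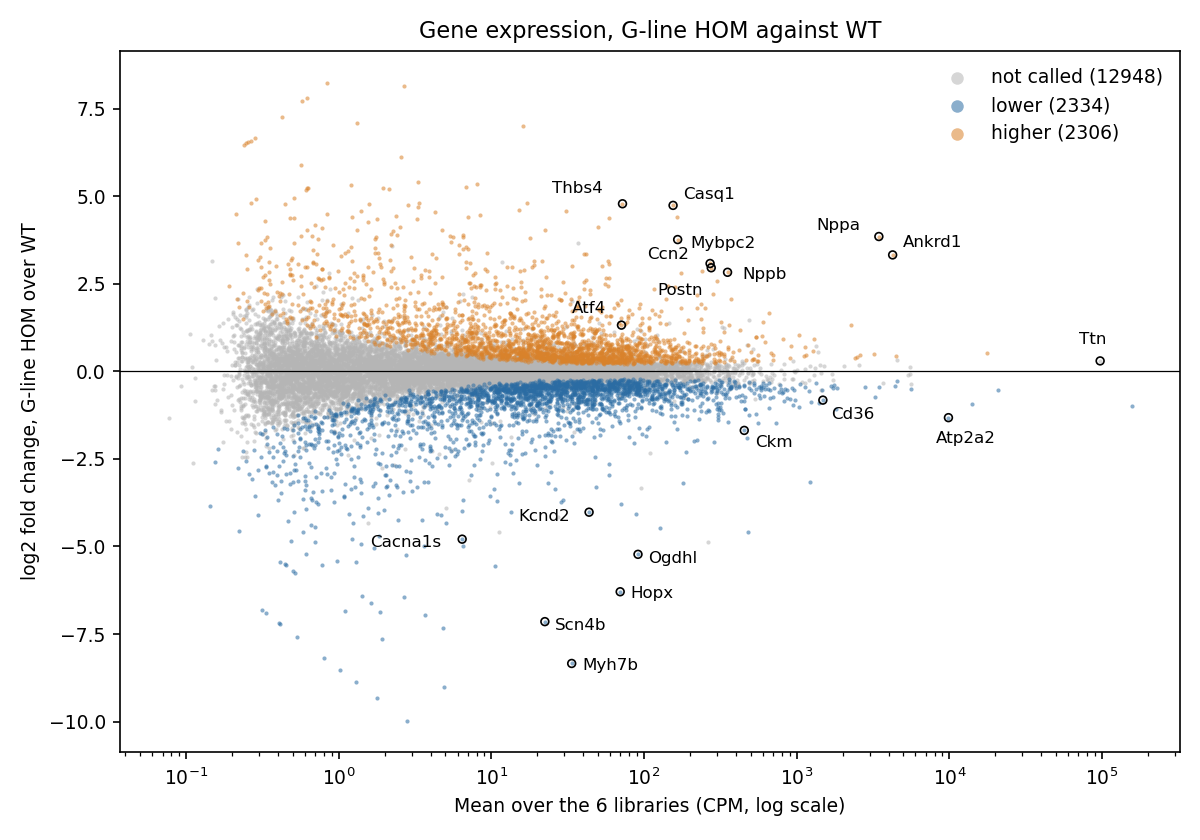
Mean level of each tested gene over the 6 libraries (x axis, CPM, log scale) against the log2 fold change of G-line HOM over WT (y axis). Orange points are the 2306 genes called higher, blue points the 2334 called lower and grey points the genes not called, with selected genes of the text named.

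Most tested genes that respond to stretch of the ventricular wall rose. They encode titin-associated ankyrin and LIM proteins and Z-disc adaptors that link load on the sarcomere to gene expression. Ankrd1, which encodes the cardiac ankyrin repeat protein bound to titin and induced by load, stood at 718, 877 and 723 CPM in WT and 8066, 8620.4 and 6498 CPM in G-line HOM. Every G-line HOM library lay far above every WT library, by 3.32 ± 0.20 on the log2 scale (± SE, adjusted p = 6.98e-07). The related Ankrd23 was at 146, 144 and 134 CPM in WT and 746, 644 and 399.7 CPM in G-line HOM (2.08 ± 0.33, adjusted p = 0.00126). Xirp2, which encodes an actin-binding repeat protein of the costamere and intercalated disc, rose from 1183–1397 to 3015–3452 CPM (1.31 ± 0.17). Myoz1, the calsarcin of fast skeletal muscle, rose from 0.0757–0.129 to 0.895–1.66 CPM (3.46 ± 0.51), while Myoz2, the cardiac calsarcin, fell by 0.59 on the log2 scale (from 872–977 to 556–655 CPM, adjusted p = 0.00619). Of 20 tested members, 11 rose and 2 fell, beside 13.1% and 13.3% of all genes, with a median of 0.73. Without the shared pair 7 rose, and Ankrd23 (adjusted p = 0.0531) and Myoz2 (0.1) no longer passed. Without the 3 libraries that held Myl7, 11 rose. When the pair was counted as A-line HOM, Ankrd1 itself did not pass (adjusted p = 0.111).

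The natriuretic peptides, hormones that the loaded heart muscle secretes, were both higher. Nppb, the B-type peptide gene, was at 84.9, 70.7 and 106 CPM in WT and 545, 720.4 and 587 CPM in G-line HOM, so the groups lay far apart (2.83 ± 0.24, adjusted p = 2.41e-05). Nppa, the atrial peptide gene, was at 64.2, 1194 and 87.0 CPM in WT and 7881, 6818 and 4671 CPM in G-line HOM (3.85 ± 1.20, adjusted p = 0.0462). WT replicate 2, which held atrial transcripts, was the high WT library. The adjusted p of Nppa was 0.00114 without it and 0.0163 without the shared pair, and the call was lost on leaving out any other library (0.0631 to 0.107). Corin, which encodes the protease that activates the A-type peptide, fell by 0.59 on the log2 scale (adjusted p = 0.00381), but not without the shared pair (0.071). The other 4 of 7 tested members, receptors and proteases, were not called.

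Ankrd1 is shown with its promoter because it had the lowest adjusted p among the stretch genes. The bases are the 250 upstream of the RefSeq start (GRCm38.p6, chr19:36119845-36120094, minus strand, 5′ to 3′ along the gene), with the letters GGAATG, the element bound by TEAD factors, in capitals.
Ankrd1: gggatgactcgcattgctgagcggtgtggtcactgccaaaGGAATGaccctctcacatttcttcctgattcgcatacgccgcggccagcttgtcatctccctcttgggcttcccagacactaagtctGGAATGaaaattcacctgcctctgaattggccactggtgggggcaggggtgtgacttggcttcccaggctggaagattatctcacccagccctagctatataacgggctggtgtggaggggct
The search covered both strands, and GGAATG overlaps no other motif searched. A match was found in 13.5% of the 13184 promoters of tested genes and in 3 of 17 matched stretch genes (17.6%). Of 14 matched matricellular and adhesive matrix genes, 2 held one (14.3%). A match is a description of the letters, not a binding site or a cause.

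**Figure D2:**
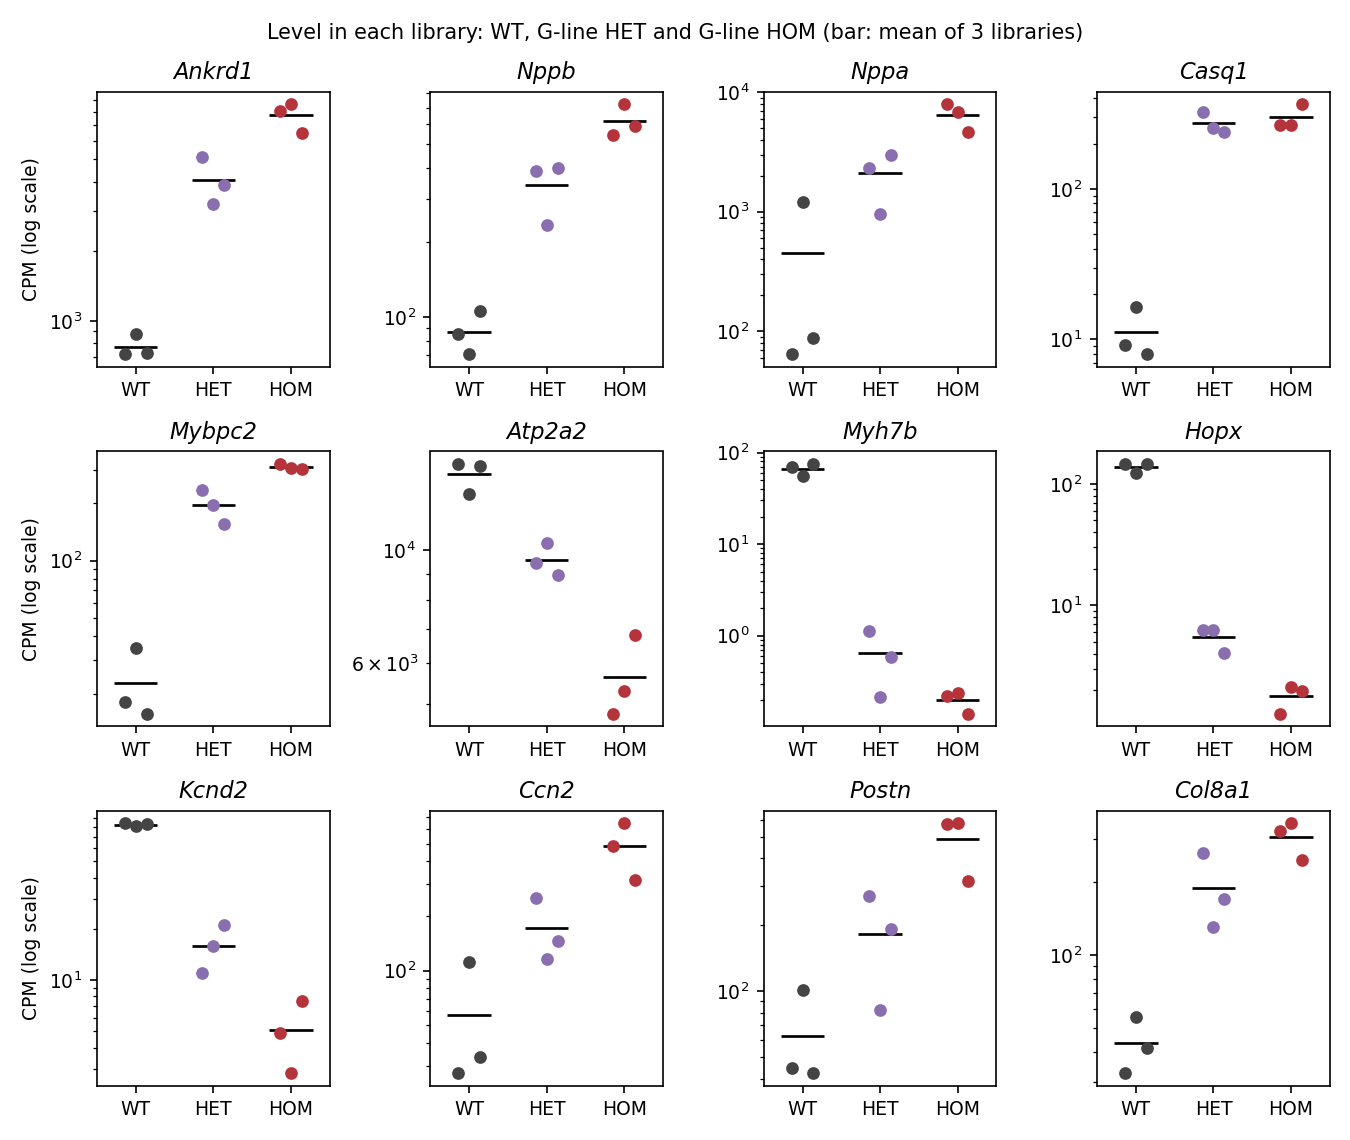
CPM (y axis, log scale) of 12 genes of stretch, contraction and matrix in each library of WT, G-line HET and G-line HOM (points), with the group mean as a bar. Nppb and Ankrd1 sit higher in all 3 G-line HOM libraries than in any WT library, and Myh7b and Hopx lower.

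Sarcomere genes moved in both directions. In the thick filament, 7 of 16 tested members rose and 4 fell. Skeletal forms were among those that rose. Mybpc2, the fast skeletal myosin-binding protein C, was at 18.0, 34.7 and 15.7 CPM in WT and 322, 305 and 301 CPM in G-line HOM (3.76 ± 0.41, adjusted p = 2e-04), with no overlap. Myom3, a myomesin of the M-band, rose by 2.36 ± 0.29 and Myl1, a skeletal light chain, by 2.35 ± 0.31. The ventricular essential light chain gene Myl3 fell (-0.90 ± 0.15, adjusted p = 0.000517), whereas Mybpc3, the cardiac myosin-binding protein C, rose (0.44 ± 0.12, adjusted p = 0.0165) and the regulatory light chain gene Myl2 was not called (adjusted p = 0.0609). The Mybpc3 call was lost without replicate 2 of either group (0.0858 for G-line HOM, 0.0707 for WT), the shared pair (0.206) or the libraries that held Myl7 (0.0895). Both main heavy chains of the mouse ventricle were lower, Myh7 at 179, 224 and 157 CPM in WT and 125, 108 and 74.9 CPM in G-line HOM (-0.86 ± 0.17) and Myh6 with -0.54 ± 0.12. How reads were divided between these near-identical copies is uncertain. Myh7b, the heavy chain gene whose intron hosts a muscle microRNA, was at 70.4, 55.3 and 75.0 CPM in WT and 0.219, 0.236 and 0.141 CPM in G-line HOM, nearly absent in every homozygous library (-8.34 ± 0.36). Without the shared pair 4 members rose and 3 fell, and Myh6 no longer passed (adjusted p = 0.136).

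Thin filament genes had 4 of 22 higher and 4 lower, shares near those of all genes. Tnni1, the slow skeletal and fetal troponin I, was at 0.0859, 0.492 and 0.0834 CPM in WT and 5.35, 2.64 and 1.88 CPM in G-line HOM (3.84 ± 0.71, adjusted p = 0.00162). Tnni3, the adult cardiac troponin I, was at 2305, 2483 and 2532 CPM in WT and 1025, 1267 and 1197 CPM in G-line HOM, lower in all 3 homozygous libraries (-1.07 ± 0.13, adjusted p = 6.69e-05). Tmod4, a tropomodulin of skeletal muscle, fell from 19.0–22.7 to 2.25–5.17 CPM (-2.59 ± 0.40), and Nebl, which encodes the Z-disc protein nebulette, fell by 0.52 on the log2 scale. Acta1, the skeletal actin gene, did not pass, with 121, 332 and 117 CPM in WT and 751, 237 and 378 CPM in G-line HOM (adjusted p = 0.11). Tnnt1, the slow skeletal troponin T, fell (-1.93 ± 0.37), though not without the shared pair (adjusted p = 0.0621). Without the shared pair 1 rose and 3 fell, with library totals 8 and 4, and 2 rose without WT replicate 1 or 3.

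Ttn, the giant spring of the sarcomere and the best known splicing target of RBM20, was at 97289, 78807 and 85683 CPM in WT and 103925, 106635 and 110990 CPM in G-line HOM and did not pass (0.30 ± 0.11, adjusted p = 0.0573). Among 28 splicing targets known from earlier work, 6 had a higher and 7 a lower gene total, with a median of -0.10. Over all genes 13.1% were higher and 13.3% lower. The balance turned with the scaling, as library totals gave 11 higher and 3 lower with a median of 0.07. Without the shared pair 4 were higher and 4 lower, and 4, 4 and 3 were lower without G-line HOM replicate 1, WT replicate 1 and WT replicate 3. Enah, an actin regulator of the intercalated disc, rose from 94.9–101 to 362–386 CPM (1.93 ± 0.24), Rtn4, a reticulon of the endoplasmic reticulum, by 1.81 ± 0.20, and Lrrfip1 by 0.95 ± 0.11. Fhod3, a formin that maintains the sarcomere, fell by 0.60 and Trdn, which encodes triadin of the calcium release unit, by 0.61 on the log2 scale.

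The costamere anchors the sarcomere to the cell membrane. Of 32 tested genes of the costamere, the dystrophin complex and integrins, 11 rose and 3 fell. The integrin subunit genes Itga9 (0.90 ± 0.11) and Itga5 (0.74 ± 0.13), Tln1 for talin (0.68 ± 0.13), Lama2 for the laminin of muscle basement membrane (0.55 ± 0.09) and Dmd for dystrophin (0.73 ± 0.12) rose. The sarcoglycan genes Sgca (-0.84 ± 0.11) and Sgcd (-0.53 ± 0.10) fell. Without the shared pair 6 rose and 3 fell, and with library totals 17 rose. Of 23 tubulin and microtubule genes, 8 rose and 3 fell (5 and 2 without the shared pair), and 1 fell without G-line HOM replicate 1 or 3 or WT replicate 1. Map1a, a microtubule-associated protein best known in neurons, was at 6.01, 9.31 and 6.63 CPM in WT and 75.9, 76.0 and 74.3 CPM in G-line HOM, without overlap (3.36 ± 0.31, adjusted p = 6.53e-05). The neuronal tubulin gene Tubb3 rose from 0.344–0.719 to 1.97–4.33 CPM (2.63 ± 0.36), and the muscle-rich tubulin gene Tuba4a fell (-1.02 ± 0.20).

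The main calcium pump of the heart fell, while most genes of its list were not called. Atp2a2, the calcium pump of the sarcoplasmic reticulum, was at 14769, 12905 and 14604 CPM in WT and 4781, 5288 and 6827 CPM in G-line HOM, with every homozygous library below every WT library (-1.32 ± 0.17, adjusted p = 0.000102). Strit1, whose micropeptide activates that pump, was at 6.66, 4.84 and 5.25 CPM in WT and had no count in G-line HOM, at least 138-fold lower where 3 counts summed over the group were taken as the floor. Pln, that pump's inhibitor phospholamban, fell by 0.41 on the log2 scale (adjusted p = 0.023), but that call was lost without replicate 1 (0.099) or 2 (0.0517) of G-line HOM or 1 (0.107) or 3 (0.0775) of WT and without the shared pair (0.058). Of 19 genes of reuptake and extrusion, 6 fell (3 without the shared pair). In the release unit 5 of 20 rose and 4 fell, against 2 and 2 without the shared pair and 10 and 2 with library totals. Single libraries moved these counts too, with 3 higher without WT replicate 2, 3 higher and 2 lower without WT replicate 3 and 2 lower without G-line HOM replicate 1. Casq1, the calsequestrin of skeletal muscle, was at 9.15, 16.4 and 7.96 CPM in WT and 267, 264 and 364 CPM in G-line HOM (4.74 ± 0.32, adjusted p = 1.16e-05). Hrc, a calcium-binding protein of the reticulum lumen, was at 776, 716 and 754 CPM in WT and 108, 182 and 310.2 CPM in G-line HOM, lower in all 3 (-1.91 ± 0.33, adjusted p = 0.00221). Fkbp1a, which encodes a small protein that binds ryanodine receptors, rose (0.67 ± 0.09).

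Calcium channels of the surface membrane moved both ways, 4 of 15 higher and 5 lower (3 and 2 without the shared pair). Without G-line HOM replicate 1 or WT replicate 1 the counts were 2 and 3, 3 fell without G-line HOM replicate 2, and 2 rose without WT replicate 3. The T-type channel genes Cacna1g and Cacna1h, active in the fetal ventricle, rose, Cacna1g from 10.9–12.8 to 57.4–117 CPM (3 ± 0.30) and Cacna1h by 1.46 ± 0.32. Cacna1s, the L-type channel of skeletal muscle, was at 13.2, 12.1 and 11.8 CPM in WT and 0.219, 0.565 and 0.610 CPM in G-line HOM (-4.79 ± 0.49, adjusted p = 4.28e-05). Cacng6, another channel subunit, fell from 0.625–1.21 to 0.0313–0.0939 CPM (-4 ± 0.65).

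Potassium channels repolarize heart muscle after each beat. Of 31 tested genes, 15 fell and 4 rose, with a median of -0.45 (11 and 2 without the shared pair). Kcnd2, a pore subunit of the transient outward current that repolarizes mouse ventricle, was at 83.6, 80.2 and 82.7 CPM in WT and 4.85, 2.83 and 7.51 CPM in G-line HOM (-4.02 ± 0.32, adjusted p = 2.74e-05). Kcnd3, which carries a similar current, fell (-0.92 ± 0.16), as did Kcnv2, a modifying subunit (-3.69 ± 0.46), and Kcnj3, a subunit of the channel opened by acetylcholine (-3.80 ± 0.66). Abcc9, the regulatory subunit of the channel closed by ATP, was lower too, at -1.26 ± 0.16. It is also a pericyte marker, a list of 9 in which 5 fell and 1 rose (2 fell without the shared pair, summed level 1530 to 1732 CPM in WT and 928 to 1145 CPM in G-line HOM), and their part in the Abcc9 value was not tested. Kcne1, an auxiliary subunit of the slow delayed rectifier, rose from 2.17–2.88 to 21.2–54.3 CPM (4.02 ± 0.37), and the stretch-opened channel gene Kcnk2 by 1.17 ± 0.22.

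Among sodium and pacemaker channels, pump subunits and gap junctions 9 of 24 fell and 3 rose (7 and 1 without the shared pair). Scn4b, an auxiliary subunit of cardiac sodium channels, was at 34.2, 46.6 and 52.6 CPM in WT and 0.313, 0.0471 and 0.564 CPM in G-line HOM (-7.14 ± 0.89, adjusted p = 0.000519). Scn10a (-4.79 ± 0.46) and Scn4a (-1.48 ± 0.22), sodium channel pore genes, fell as well. Gja1, the connexin gene of ventricular gap junctions, fell by 0.47 on the log2 scale (adjusted p = 0.0092), a call lost without replicate 1 (0.0567) of WT. At the intercalated disc, 5 of 15 adhesion genes rose and 5 fell (1 and 3 without the shared pair, and 3 rose without the libraries that held Myl7). Dsc2, a desmosomal cadherin, fell by 1.17 and Tmem65, a partner of connexin, by 0.92 on the log2 scale, while the plakophilin gene Pkp2 rose by 0.52 ± 0.08.

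**Figure D3:**
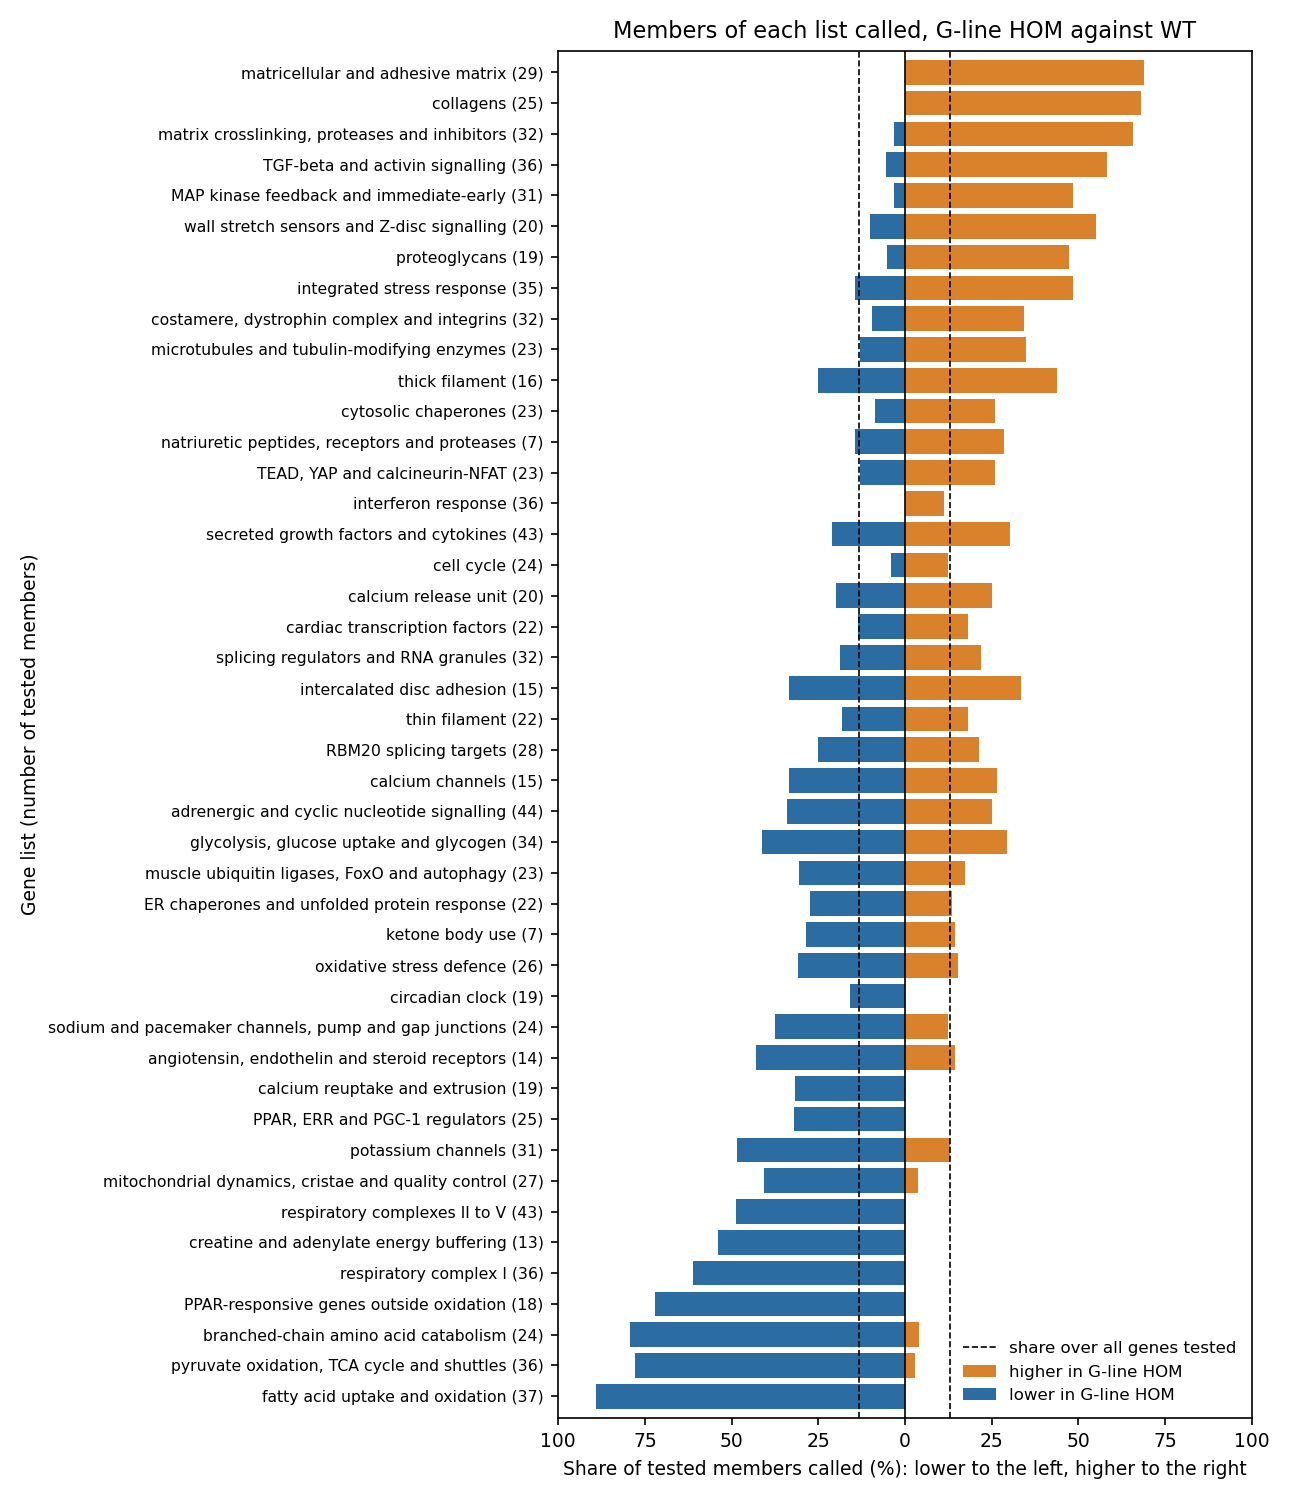
Share of the tested members of each gene list (y axis) that were called higher (orange, to the right) or lower (blue, to the left) in G-line HOM than in WT, in percent (x axis). Dashed lines mark the shares over all 17588 genes, 13.1% higher and 13.3% lower, and the number of tested members stands beside each list.

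Nearly all tested genes of fatty acid uptake and oxidation fell. The list runs from uptake over activation and the carnitine shuttle to the enzymes of beta-oxidation in mitochondria. Of 37 tested members, 33 fell, with a median of -0.88. The count was 31 without the shared pair, 33 without the libraries that held Myl7, and 19 when the pair was counted as A-line HOM. Cd36, the main fatty acid transporter of the heart, was at 1994, 1691 and 2001 CPM in WT and 1072, 1025 and 1118 CPM in G-line HOM, with no overlap (-0.82 ± 0.10, adjusted p = 7.91e-05). Acsl1, which activates long-chain fatty acids, fell too (-0.85 ± 0.13). Of the oxidation enzymes, Hadha, a subunit of the trifunctional protein, was at 1407, 1274 and 1481 CPM in WT and 527, 689 and 825 CPM in G-line HOM (-1.03 ± 0.14, adjusted p = 0.000141). Acaa2, the thiolase of the last step (-1.47 ± 0.20), Decr1, which handles unsaturated chains (-1.39 ± 0.17), and Ech1 (-1.49 ± 0.16) fell. Etfdh, which passes electrons to the respiratory chain, fell as well (-1.09 ± 0.15). Acot1, a thioesterase that frees fatty acids in the cytosol, fell from 6.14–9.63 to 1.04–2.68 CPM (-2.17 ± 0.29).

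The nuclear regulators of this program had fewer calls. Of 25 genes for PPAR, ERR and PGC-1 factors and their partners, 8 fell. The retinoid receptor gene Rxrg fell from 33.7–41.4 to 9.38–15 CPM (-1.65 ± 0.17), and Esrrg, an estrogen-related receptor of oxidative muscle, by 0.47 on the log2 scale. Ppargc1a, the coactivator gene, was at 146, 122 and 121 CPM in WT and 117, 137 and 165 CPM in G-line HOM, with overlapping groups (0.11 ± 0.13, adjusted p = 0.568). PPAR-responsive genes outside oxidation were lower in 13 of 18, a count of 3 without the shared pair. Ucp3, a mitochondrial carrier of muscle, was at 48.2, 46.5 and 70.2 CPM in WT and 5.16, 1.74 and 5.96 CPM in G-line HOM (-3.66 ± 0.55, adjusted p = 0.00131). Dgat2, which makes triglyceride (-2.30 ± 0.33), and Plin5, which coats lipid droplets in oxidative tissue (-0.95 ± 0.12), fell. Pdk4, the kinase that closes pyruvate oxidation when fat is burnt, was at 375, 328 and 679 CPM in WT and 142, 68.1 and 130.1 CPM in G-line HOM (-2.02 ± 0.41, adjusted p = 0.0059), and did not pass without the shared pair (0.0509).

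Most tested genes for catabolism of the branched-chain amino acids leucine, isoleucine and valine were lower as well. Of 24 tested enzymes and carriers, 19 fell and 1 rose, with a median of -0.70 (13 and 1 without the shared pair). Bcat2, the transaminase of the first step, fell (-0.94 ± 0.13), as did Bckdhb (-1.24 ± 0.17) and Dbt (-1.22 ± 0.17), subunits of the keto acid dehydrogenase. Ivd, on the leucine branch, was at 338, 308 and 348 CPM in WT and 109.8, 135 and 142 CPM in G-line HOM, with the groups well apart (-1.36 ± 0.15, adjusted p = 3.55e-05). Mccc2, also of the leucine branch (-1.24 ± 0.14), and Aldh6a1, of the valine branch (-1.58 ± 0.19), fell. Ppm1k, the phosphatase that switches the dehydrogenase on, was lower as well (-1.26 ± 0.23).

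In pyruvate oxidation, the TCA cycle and its shuttles 28 of 36 fell and 1 rose, with a median of -0.57. Pcx, which refills the cycle with oxaloacetate, was at 29.4, 36.3 and 29.8 CPM in WT and 12.8, 12.5 and 13 CPM in G-line HOM (-1.31 ± 0.14, adjusted p = 2.74e-05). Cs, the citrate synthase gene often read as a measure of mitochondria, fell from 1092–1342 to 577–844 CPM (-0.81 ± 0.17). The genes of both sides of the pyruvate dehydrogenase switch were lower, the phosphatases Pdp1 (-0.80 ± 0.14) and Pdp2 (-1.71 ± 0.20) and the kinase Pdk2 (-1.22 ± 0.16). The kinase Pdk3 was the member that rose (1.10 ± 0.22). Ogdhl, a relative of the oxoglutarate dehydrogenase of the cycle that the list does not hold, was at 172, 164 and 197 CPM in WT and 2.19, 3.58 and 8.83 CPM in G-line HOM (-5.22 ± 0.89, adjusted p = 0.003). Of the list itself, 17 fell without the shared pair.

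Subunits of the respiratory chain were called toward lower levels. In complex I 22 of 36 nuclear-encoded genes fell, with a median of -0.41, and in complexes II to V 21 of 43 fell. Ndufv3 (-0.65 ± 0.12) and Ndufb10 (-0.60 ± 0.12) of complex I, Sdha of complex II (-0.57 ± 0.12) and Atp5g1 of the ATP synthase (-0.74 ± 0.14) were among them. These counts rested on the shared pair, on the scaling and on single libraries. Without the pair 4 and 3 fell, and with library totals in place of TMM 12 and 10. They were 11 and 8 without G-line HOM replicate 1, 13 and 11 without WT replicate 1, and 10 and 9 without WT replicate 3. Of 27 genes of mitochondrial fusion, cristae and quality control, 11 fell and 1 rose (5 fell without the shared pair), with the fusion genes Opa1 (-0.70 ± 0.12) and Mfn1 (-0.52 ± 0.11) among those that fell.

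Creatine and adenylate kinases buffer the supply of ATP between mitochondria and myofibrils. Of 13 genes of creatine and adenylate buffering, 7 fell (4 without the shared pair). Ckm, the muscle creatine kinase, was at 675, 641 and 759 CPM in WT and 181, 201 and 262 CPM in G-line HOM (-1.69 ± 0.19, adjusted p = 7.57e-05), and the adenylate kinase genes Ak1 (-1.13 ± 0.19) and Ak4 (-1.75 ± 0.28) fell. Glycolysis, glucose uptake and glycogen genes went both ways, 10 of 34 higher and 14 lower (4 and 12 without the shared pair). Slc2a4, the transporter opened by insulin, was at 329, 304 and 337 CPM in WT and 124, 159.7 and 162 CPM in G-line HOM (-1.12 ± 0.17, adjusted p = 0.00047). Hk2, the hexokinase of muscle (-1.03 ± 0.14), and Phkg1, the catalytic subunit of muscle phosphorylase kinase (-4.03 ± 0.39), fell. Pfkp, a phosphofructokinase form of low abundance in muscle, rose from 74.3–74.7 to 127–152 CPM (0.93 ± 0.10). Bdh1, which opens the use of ketone bodies, rose from 39.6–61.9 to 104–152 CPM (1.31 ± 0.22, adjusted p = 0.00114).

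**Figure D4:**
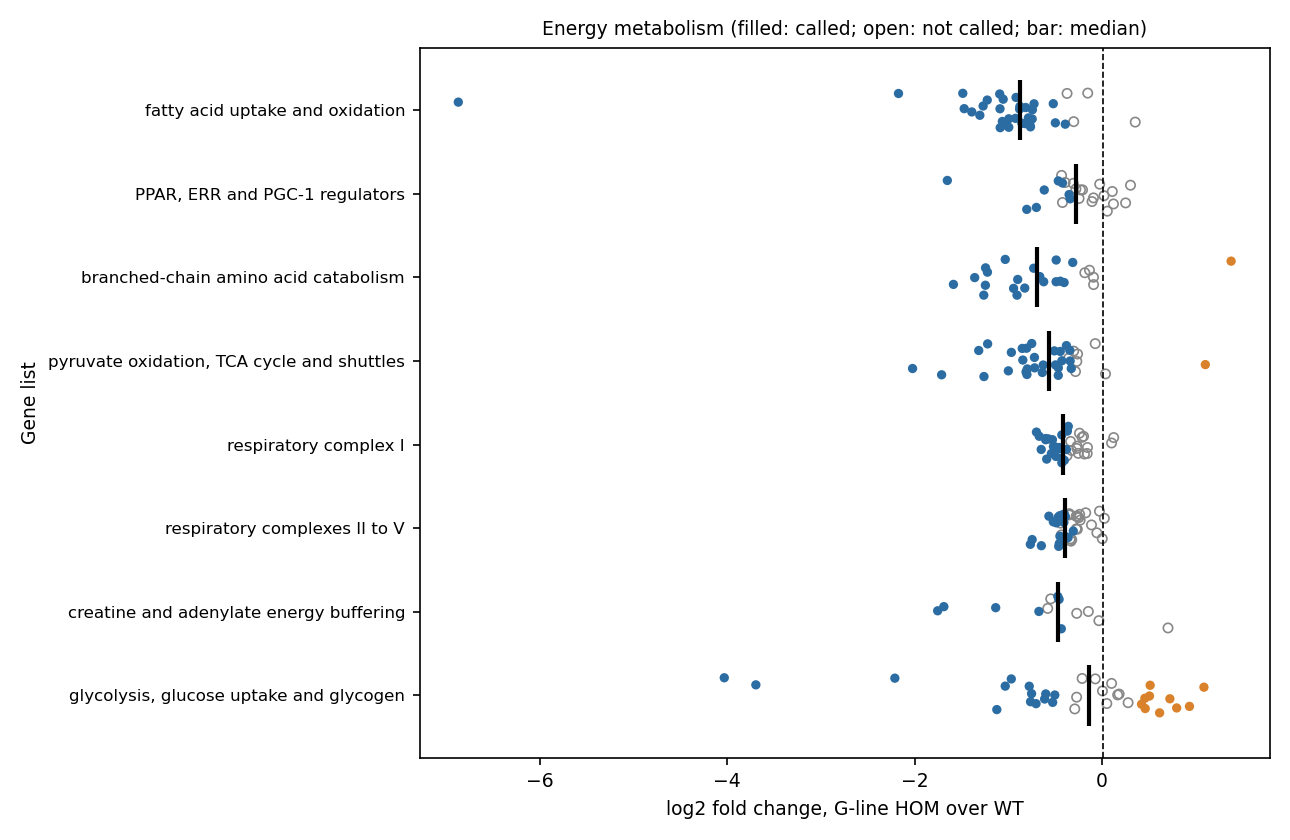
Log2 fold change of G-line HOM over WT (x axis) for every tested member of 8 lists (y axis: fatty acid oxidation, its regulators, branched-chain catabolism, pyruvate and TCA cycle, complex I, complexes II to V, creatine buffering, glycolysis), with called members filled and the list median as a bar. The medians of fatty acid oxidation (-0.88) and branched-chain amino acid catabolism (-0.70) are the lowest of these 8, which leave out the PPAR-responsive genes outside oxidation (median -0.74), and the dashed line is the median of all genes.

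These metabolic genes are mostly expressed in heart muscle cells. Among 15 ventricular cardiomyocyte markers 7 fell and 1 rose (3 fell without the shared pair, and 4 without G-line HOM replicate 1 or WT replicate 3), and their summed level overlapped between the groups, as given above. Ttn made up most of that sum in every library of both groups, so the sum mostly follows Ttn. Its level was higher in every G-line HOM library than in any WT library, though it was not called. The part of these markers in the metabolic results was not tested.

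Most extracellular matrix genes on the lists rose, and few fell. Of 29 tested matricellular and adhesive matrix genes, 20 were higher, with a median of 1.68, and fewer were higher without the shared pair. The list joins matricellular proteins, which signal to cells, with adhesive and elastic fibre genes. Ccn2, a profibrotic secreted factor, was at 27.2, 111 and 33.2 CPM in WT and 489, 646 and 317 CPM in G-line HOM (3.08 ± 0.61, adjusted p = 0.0065). Sparc, which binds collagen, rose by 1.68 ± 0.17, and Fbln2 and Fbln5, the fibulins of elastic fibres, by 1.80 ± 0.28 and 1.54 ± 0.27. Postn, secreted by activated fibroblasts, was at 44.6, 102 and 42.4 CPM in WT and 571, 576 and 317 CPM in G-line HOM (2.96 ± 0.53), and Spp1, osteopontin, at 0, 0.795 and 0.167 CPM in WT and 5.13, 4.95 and 2.11 CPM in G-line HOM (3.60 ± 0.78). Thbs4, a thrombospondin, was at 2.23, 9.42 and 3.38 CPM in WT and 215, 151 and 51.8 CPM in G-line HOM, where replicate 3 lay nearest to WT (4.78 ± 1.06, adjusted p = 0.0111). The Thbs4 call was lost without replicate 3 (0.05) of WT as well as without the shared pair (0.108) or the libraries that held Myl7 (0.0578).

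Of 25 collagen genes, 17 rose (8 without the shared pair). The count was 9 without WT replicate 1, 9 without WT replicate 3 and 11 without G-line HOM replicate 1. Col8a1 was at 32.7, 55.9 and 41.5 CPM in WT and 324, 348 and 246 CPM in G-line HOM, with no overlap (2.82 ± 0.28, adjusted p = 7.87e-05). Col12a1, which decorates collagen fibrils, was at 3.18, 10.8 and 2.17 CPM in WT and 125, 117 and 43.1 CPM in G-line HOM (4.13 ± 0.77, adjusted p = 0.00472). Col5a2 (1.59 ± 0.32) and the basement membrane genes Col4a3 (2.13 ± 0.33), Col4a4 (1.43 ± 0.21) and Col4a5 (0.84 ± 0.13) rose. The fibril-forming genes of scar were less clear. Col1a1 was at 24.3, 58.4 and 26.4 CPM in WT and 194, 102 and 71.1 CPM in G-line HOM (1.75 ± 0.53, adjusted p = 0.0389), a call lost without replicate 1 (0.121) or 3 (0.123) of WT, replicate 1 (0.129) or 2 (0.0652) of G-line HOM, the shared pair (0.106) or the libraries that held Myl7 (0.054). Col3a1, at 261, 469 and 317 CPM in WT and 823, 493 and 449.5 CPM in G-line HOM, did not pass (adjusted p = 0.0986).

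Enzymes that finish, link and cut the matrix moved in the same direction, with 21 of 32 higher and 1 lower (15 higher without the shared pair). Timp1, an inhibitor of matrix metalloproteinases, was at 1.03, 1.67 and 1.08 CPM in WT and 10.5, 5.98 and 5.26 CPM in G-line HOM (2.52 ± 0.43, adjusted p = 0.00102). Pcolce, which speeds procollagen processing (1.90 ± 0.19), the crosslinking genes Loxl2 (1.40 ± 0.21) and Loxl3 (2.25 ± 0.38), and Mmp2, a gelatinase (1.19 ± 0.28), rose. Outside the list, Adamtsl2, which acts on TGF-beta storage in the matrix, rose from 5.93–19.7 to 74.3–124 CPM (3.16 ± 0.51). Of 19 proteoglycan genes, 9 rose and 1 fell, and 5 rose without WT replicate 1 or 3, or without G-line HOM replicate 1. Bgn, biglycan, rose from 72.3–148 to 343–574 CPM (2.2 ± 0.30), and Vcan, versican, by 1.91 ± 0.28.

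Genes of signalling by TGF-beta and activin, which drives matrix genes, were called among ligands, receptors and inhibitors. Of 36 tested members, 21 rose and 2 fell (12 rose without the shared pair). Among ligands, Inhba, the activin A subunit, was at 1.37, 4.13 and 1.54 CPM in WT and 38.3, 31.2 and 30.1 CPM in G-line HOM (3.80 ± 0.66, adjusted p = 0.00285), and Tgfb3 rose by 1.16 ± 0.22. Tgfbr1 (1.41 ± 0.19) and Tgfbr2 (0.64 ± 0.14), the receptor genes, were higher. Inhibitors rose beside them. Skil, a repressor of SMAD factors, was at 45.9, 55.4 and 49.5 CPM in WT and 145, 153 and 133 CPM in G-line HOM (1.52 ± 0.09, adjusted p = 6.98e-07). Smad7, the inhibitory SMAD, rose by 1.42 ± 0.24. Ltbp2, a matrix protein of the latent TGF-beta binding family, was at 2.10, 11.9 and 2.04 CPM in WT and 136, 161 and 42.1 CPM in G-line HOM (4.38 ± 0.91, adjusted p = 0.00837).

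Fibroblast markers moved with the matrix genes. Of 16 markers of resting fibroblasts, 8 rose (4 without WT replicate 1 or 3, or without G-line HOM replicate 1), and their summed level was 1970 to 3573 CPM in WT and 4089 to 5332 CPM in G-line HOM. This list shares collagen genes with the lists above. Tcf21, a factor of resting fibroblasts that no matrix list holds, was at 1.5, 4.69 and 2.04 CPM in WT and 7.19, 6.08 and 4.41 CPM in G-line HOM (1.10 ± 0.33, adjusted p = 0.0247). Its groups overlapped, as WT replicate 2 lay above G-line HOM replicate 3, and the call was lost without replicate 1 (0.0977) or 2 (0.065) of G-line HOM or 1 (0.0901) or 3 (0.104) of WT. Of 11 markers of activated fibroblasts, 7 rose, with summed levels of 138 to 315 CPM in WT and 727 to 1610 CPM in G-line HOM. Cilp, a cartilage protein of the scarred heart, was at 8.12, 27.9 and 7.92 CPM in WT and 363, 366 and 209 CPM in G-line HOM (4.41 ± 0.81, adjusted p = 0.00453), and Meox1, a factor of activated fibroblasts, rose from 6.46–9.16 to 37.5–76.9 CPM (3.01 ± 0.44). The part of these markers in the matrix results was not tested.

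The integrated stress response, in which a kinase halts general translation and the factor ATF4 turns on amino acid genes, had most of its calls toward higher levels. Of 35 tested members, 17 rose and 5 fell, with a median of 0.68 (13 and 3 without the shared pair, and 14 and 3 without the libraries that held Myl7). Atf4 was at 39.3, 40.1 and 42.7 CPM in WT and 102, 105 and 97.9 CPM in G-line HOM, with no overlap (1.32 ± 0.11, adjusted p = 4.08e-06). Atf5, a related factor, was at 7.6, 9.23 and 8.34 CPM in WT and 35.4, 40.4 and 37.7 CPM in G-line HOM (2.17 ± 0.33, adjusted p = 0.000857). Transfer RNA synthetase genes Nars (0.69 ± 0.10), Aars (0.66 ± 0.11) and Sars (0.62 ± 0.13) and the amino acid transporter gene Slc7a5 (1.5 ± 0.29) rose. Ppp1r15a, which restores translation, rose by 1.28 ± 0.14, and Ddit3, a factor of prolonged stress, by 0.86 ± 0.13. The cationic amino acid transporter gene Slc7a1 went the other way, at 60.5, 49.4 and 55.8 CPM in WT and 17.5, 17.5 and 17.5 CPM in G-line HOM (-1.66 ± 0.11), as did Cth, which makes cysteine (-2.05 ± 0.37). Fgf21 and Gdf15, hormones of this response, had too few counts to be tested.

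The promoters of this list are shown because ATF4 binds a known element, TGATGNAA. It was searched on both strands in the 250 bases upstream of each RefSeq start (GRCm38.p6), and it overlaps no other motif searched. It was found in 9 of the 29 members with a promoter in the table (31.0%) and in 349 of the 13184 promoters of tested genes (2.65%). The list was drawn up around the ATF4 response, so its higher share is not a result of these data. Among all genes called higher and lower in G-line HOM the shares were 2.9% and 2.79%. All 9 genes are printed with up to 16 bases on each side, 5′ to 3′ along the gene, and the match in capitals, so that both orientations can be seen.
Atf3 (chr1:191183420-191183459, minus strand): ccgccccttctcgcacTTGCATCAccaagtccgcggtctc
Chac1 (chr2:119351033-119351072, plus strand): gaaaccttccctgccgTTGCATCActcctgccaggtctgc
Asns (chr6:7693210-7693248, minus strand): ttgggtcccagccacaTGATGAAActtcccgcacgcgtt
Pycr1 (chr11:120643828-120643867, minus strand): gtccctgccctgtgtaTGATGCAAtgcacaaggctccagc
Nupr1 (chr7:126625557-126625596, minus strand): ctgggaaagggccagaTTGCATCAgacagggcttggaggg
Slc7a11, upstream match (chr3:50443656-50443695, minus strand): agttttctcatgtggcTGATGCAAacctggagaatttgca
Slc7a11, downstream match (chr3:50443637-50443676, minus strand): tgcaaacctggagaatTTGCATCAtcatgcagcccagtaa
Vldlr (chr19:27216804-27216843, plus strand): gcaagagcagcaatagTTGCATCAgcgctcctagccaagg
Aars (chr8:111033714-111033753, plus strand): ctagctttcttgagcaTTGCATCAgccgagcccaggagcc
Gars (chr6:55037955-55037994, plus strand): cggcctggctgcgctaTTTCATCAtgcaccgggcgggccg
Atf3 (2.45 ± 0.46), Nupr1 (2.33 ± 0.53), Slc7a11 (2.54 ± 0.69), Pycr1 (1.09 ± 0.29) and Aars rose, and Vldlr, a lipoprotein receptor, fell (-0.85 ± 0.09). Asns (1.52 ± 0.52, adjusted p = 0.0548), Chac1 (0.51 ± 0.54, adjusted p = 0.545) and Gars (0.26 ± 0.12, adjusted p = 0.147) did not pass. The Pycr1 call was lost without WT replicate 3 (0.0592) and without the shared pair (0.0918). The element thus stood upstream of genes called in either direction and of genes not called. These matches are letters in the reference and show neither binding nor a cause.

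Genes of protein quality control outside this response went both ways. Over all genes 13.1% were higher and 13.3% lower, the shares to set beside each count of this paragraph. In the endoplasmic reticulum 3 of 22 genes rose and 6 fell (1 and 4 without the shared pair), with the sensor gene Atf6 at 0.65 ± 0.10 and the chaperone gene Canx at -0.43 ± 0.10. Library totals turned these counts to 7 and 1, and 3 fell without G-line HOM replicate 1 and 2 without WT replicate 1. Of 23 cytosolic chaperone genes, 6 rose and 2 fell (1 rose without the shared pair). Among 23 genes of muscle ubiquitin ligases, FoxO factors and autophagy 4 rose and 7 fell (3 fell without the shared pair, and 4 with library totals or without G-line HOM replicate 1 or WT replicate 3). Sqstm1, the autophagy receptor gene, rose from 266–288 to 408–452 CPM (0.65 ± 0.09), and Asb15, an adaptor of a muscle ubiquitin ligase, fell by 1.34 on the log2 scale. In the defence against oxidants 4 of 26 rose and 8 fell, against 1 and 3 without the shared pair and 9 and 4 with library totals. The count that rose was 1 without G-line HOM replicate 1 or either of WT replicates 1 and 3 and 2 without G-line HOM replicate 2, and 5 fell without G-line HOM replicate 2 or WT replicate 3. Sod2, the superoxide dismutase of mitochondria, was at 472, 391 and 445 CPM in WT and 163, 203 and 240.5 CPM in G-line HOM (-1.11 ± 0.21, adjusted p = 0.00235).

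Genes of adrenergic and cyclic nucleotide signalling went both ways. Of 44 tested members, 11 rose and 15 fell (4 and 10 without the shared pair), and 7, 6 and 7 rose without G-line HOM replicate 1, G-line HOM replicate 2 and WT replicate 1. Adra1a, an alpha-adrenergic receptor, was at 93.0, 72.4 and 97.9 CPM in WT and 4.16, 6.13 and 16.6 CPM in G-line HOM (-3.31 ± 0.51, adjusted p = 0.00163). Grk5, a kinase that silences active receptors, was at 47.1, 36.8 and 39.5 CPM in WT and 153, 149 and 127 CPM in G-line HOM (1.80 ± 0.19, adjusted p = 6.42e-05). Of the phosphodiesterase genes, whose enzymes break down cyclic nucleotides, 6 of 16 tested fell and 4 rose. Pde7a (-1.63 ± 0.12), Pde1c (-1.61 ± 0.20), Pde4a (-1.14 ± 0.13) and Pde2a (-0.83 ± 0.08) were among those that fell, and Pde7b (0.76 ± 0.15) among those that rose. Adcy7, an adenylyl cyclase form, rose from 21.5–33.9 to 79.9–123 CPM (1.96 ± 0.23), and Prkar1a, the regulatory subunit that restrains protein kinase A, by 0.99 ± 0.14. Rgs13, a regulator of G proteins, was at 3.22, 4.05 and 3.38 CPM in WT and had no count in G-line HOM, at least 88.6-fold lower against the floor of 3 counts over the group.

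Feedback genes of MAP kinases and immediate-early genes, which respond quickly to growth signals, had 15 of 31 higher and 1 lower (7 and 1 without the shared pair, and 7 higher with all 15 columns as labelled). Fosl2, an AP-1 factor, was at 24.2, 24.2 and 19.3 CPM in WT and 67.5, 70.1 and 58.8 CPM in G-line HOM (1.53 ± 0.13, adjusted p = 5.82e-06). Egr3 (3.38 ± 0.46), the phosphatase gene Dusp4 (1.72 ± 0.34) and Spry1, which curbs receptor kinases (1.05 ± 0.15), rose. Of 43 secreted growth factors and receptors, 13 rose and 9 fell (8 and 8 without the shared pair, and 7 rose without WT replicate 1). Hbegf, a ligand of the EGF receptor released by stretched heart muscle, was at 14.7, 13.8 and 13.1 CPM in WT and 44.7, 59.7 and 51.8 CPM in G-line HOM (1.91 ± 0.14, adjusted p = 1.88e-06), and Nrg1 rose by 1.53 ± 0.27. Angpt1, which steadies vessels, was at 81.9, 115 and 108 CPM in WT and 11.7, 11.6 and 25.5 CPM in G-line HOM (-2.65 ± 0.39, adjusted p = 0.00111), and Apln, the apelin gene, fell by 1.85 on the log2 scale. In the renin-angiotensin and endothelin group 2 of 14 rose and 6 fell, beside 13.1% and 13.3% of all genes. Fewer fell without the shared pair. Ace, the angiotensin-converting enzyme, rose from 48.9–73.2 to 163–218 CPM (1.72 ± 0.17), whereas Agt, its precursor substrate, fell (-1.80 ± 0.33) with the receptor gene Agtr1a (-0.54 ± 0.10).

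Of 22 tested transcription factors of the heart, 4 were higher and 3 lower, beside 13.1% and 13.3% of all genes. The count that rose was 2 without the shared pair and 7 with library totals. Hopx, a homeodomain protein without DNA binding that restrains serum response factor, was at 145, 122 and 146 CPM in WT and 1.28, 2.12 and 1.97 CPM in G-line HOM, nearly lost in every homozygous library (-6.29 ± 0.33, adjusted p = 2.86e-06). Its reads cannot be told apart from those of an overlapping antisense gene, as counting by strand is not stated. Tbx5 was at 19.3, 26.7 and 17.4 CPM in WT and 9.41, 8.06 and 9.25 CPM in G-line HOM (-1.25 ± 0.18, adjusted p = 0.000199) and Tbx20 at 171, 147 and 144 CPM in WT and 399, 335 and 267 CPM in G-line HOM (1.12 ± 0.15, adjusted p = 0.000145). These T-box genes of heart development moved in opposite directions. Of 32 splicing regulators and RNA granule genes, 7 rose and 6 fell, beside the same shares of all genes (13.1% and 13.3%). Rbfox1, a splicing factor of excitable tissue, was at 41.2, 40.1 and 38.4 CPM in WT and 7.01, 8.86 and 14.1 CPM in G-line HOM (-2.01 ± 0.23, adjusted p = 0.000105). With library totals in place of TMM, 17 of these regulators rose and 3 fell, and without the shared pair 1 rose and 2 fell. The count that rose was 4 without WT replicate 2 or G-line HOM replicate 2 and 3 without WT replicate 3.

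Several genes of large change lie outside these lists. Dio2, the enzyme that makes active thyroid hormone within tissue, was at 1.07, 5.71 and 0.584 CPM in WT and 72.6, 83.0 and 23.0 CPM in G-line HOM (4.57 ± 0.93, adjusted p = 0.00712). Mylk4, a kinase of the myosin light chain in heart, was at 255, 227 and 253 CPM in WT and 4.47, 2.12 and 26.9 CPM in G-line HOM (-4.47 ± 1.12, adjusted p = 0.0193), a call lost without replicate 1 (0.0698) or 2 (0.056) of G-line HOM, the shared pair (0.0959) or the libraries that held Myl7 (0.124). Ces1d, a carboxylesterase that breaks down triglyceride, fell from 152–183 to 2.97–20.1 CPM (-4.08 ± 0.75), though not without the libraries that held Myl7 (adjusted p = 0.0695). Cenpf, a protein of dividing cells' centromeres, was at 66.5, 50.6 and 43.1 CPM in WT and 4.94, 2.78 and 4.32 CPM in G-line HOM (-3.72 ± 0.39, adjusted p = 0.00011). A list of 24 tested cell cycle genes, which does not hold Cenpf, had 3 higher, 1 lower and 20 not called. Over all genes 13.1% were higher and 13.3% lower. Lars2, the mitochondrial leucyl transfer RNA synthetase, was at 2227, 483 and 45.0 CPM in WT and 38.2, 34.8 and 41.0 CPM in G-line HOM (adjusted p = 0.0396). Its WT libraries spanned a wide range, and the call was lost without replicate 1 (0.116), 2 (0.119) or 3 (0.0961) of G-line HOM or 1 (0.131) or 2 (0.0509) of WT and without the libraries that held Myl7 (0.153).

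Other cell types the tissue holds were followed by their markers. Of 16 macrophage markers, 1 fell, with summed levels of 304 to 433 CPM in WT and 284 to 416 CPM in G-line HOM. The 15 endothelial markers summed to 1948 to 2003 CPM in WT and 1603 to 1933 CPM in G-line HOM. The 7 red blood cell markers summed to 289.9 to 389 CPM in WT and 253 to 1090 CPM in G-line HOM.

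**Figure D5:**
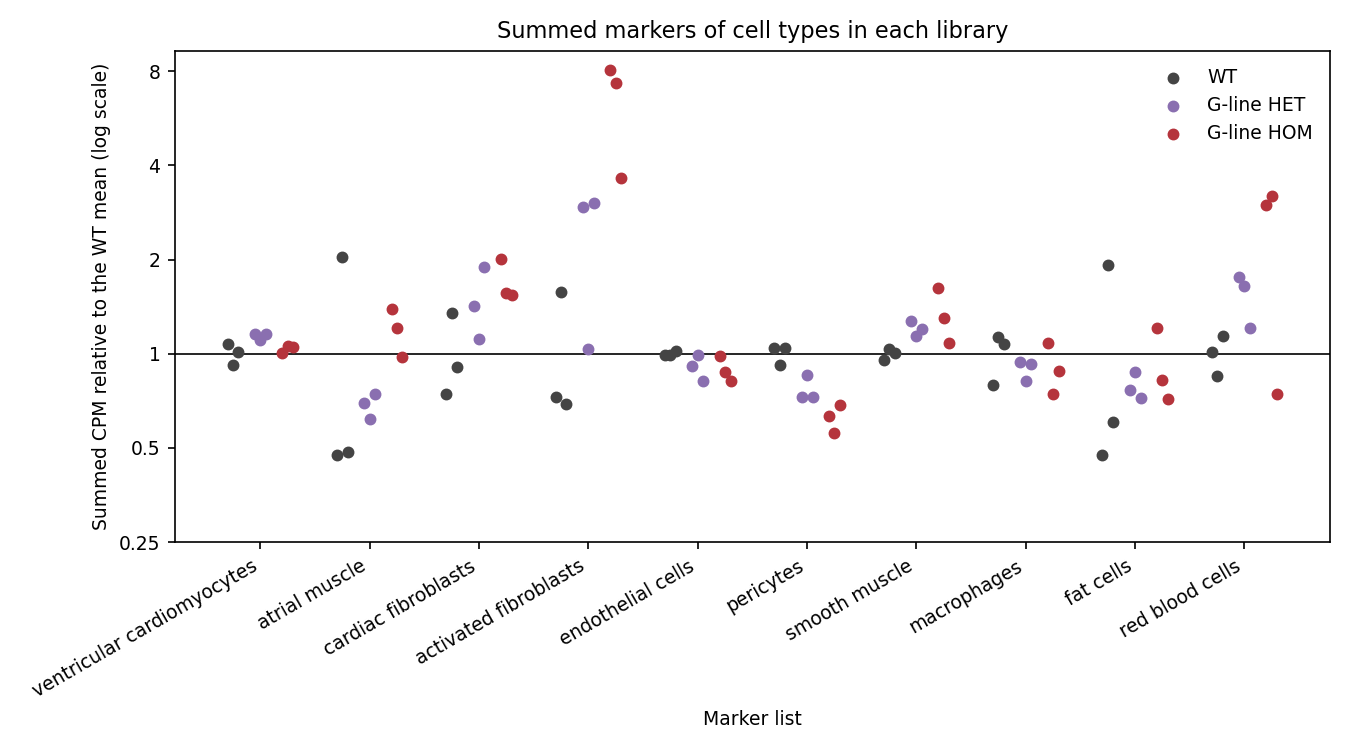
Summed CPM of the tested markers of 10 cell types in each library (points), divided by the WT mean of that list (y axis, log scale), for WT, G-line HET and G-line HOM. Markers of activated fibroblasts lie above 1 in all 3 G-line HOM libraries, and WT replicate 2 stands above the other WT libraries in atrial muscle.

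G-line HOM was also set against G-line HET, the group most like it, to show where 2 mutant copies differed from 1. Of the 17588 genes, 1094 (6.22%) were higher and 1481 (8.42%) lower in G-line HOM, 14.6% in all. Both comparisons use the same G-line HOM libraries, so they are not independent. Ankrd1 was at 5132, 3188 and 3849.8 CPM in G-line HET, between the other groups, and differed from G-line HOM by 0.93 ± 0.18 (adjusted p = 0.00592). Nppb was at 388, 236 and 399 CPM in G-line HET, and the difference passed (0.86 ± 0.23, adjusted p = 0.0288) but was lost without G-line HOM replicate 1 (0.0524), 2 (0.0978) or 3 (0.0511) and without G-line HET replicate 1 (0.0537) or 2 (0.0647). Hopx, at 6.32, 6.26 and 4.03 CPM in G-line HET, was lower in G-line HOM (-1.65 ± 0.33, adjusted p = 0.0101). Myh7b stood at 1.13, 0.216 and 0.586 CPM in G-line HET, so most of its WT level was missing there too. Casq1 was at 325, 255 and 240.1 CPM in G-line HET, within the range of the G-line HOM libraries or just outside it, and did not pass (0.13 ± 0.27, adjusted p = 0.796).

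The metabolic lists differed from G-line HET as well. In fatty acid oxidation 30 of 37 were lower (median -0.59), and in branched-chain amino acid catabolism 16 of 24 were lower. Without G-line HOM replicate 1 these counts were 16 and 6, and with the shared pair as A-line HOM 13 and 8. The branched-chain count was 8 without G-line HOM replicate 2, G-line HET replicate 2 or G-line HET replicate 3. Atp2a2 was at 9430, 10352 and 8945 CPM in G-line HET, above G-line HOM (-0.77 ± 0.17, adjusted p = 0.0104). Postn was at 269, 82.3 and 192 CPM in G-line HET (difference 1.43 ± 0.50, adjusted p = 0.0892). Atf4 was at 82.3, 65.6 and 62.7 CPM in G-line HET and differed by 0.53 ± 0.10 (adjusted p = 0.00585). When the shared pair was counted as A-line HOM, none of these named differences passed (adjusted p = 0.423 for Ankrd1, 0.416 for Nppb, 0.434 for Hopx, 0.0753 for Atp2a2 and 0.243 for Atf4), and 1251 genes were called in all. With all 15 columns as labelled, Atp2a2 passed (0.0448) and the other 4 did not (0.351 for Ankrd1, 0.348 for Nppb, 0.368 for Hopx and 0.18 for Atf4). In both settings the log2 fold changes stayed as they were (0.93 for Ankrd1, 0.86 for Nppb, -1.65 for Hopx, -0.77 for Atp2a2 and 0.53 for Atf4). The pair is in neither group of this contrast and entered it through the estimate of spread that all libraries share.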

How the data were processed

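Total RNA of mouse left ventricle was sequenced, 3 libraries per group as labelled. Per the submitters' processing notes, bcl2fastq 2.20.0.422, Trimmomatic 0.39 and STAR 2.7.4a were used with the mm39 build. Counts, raw and by gene symbol, are used here as the authors deposited them. The counting program, annotation and strand setting were not given in the sources used here. Genes reaching 0.422 CPM (10 counts in the median library) in at least 3 libraries, with 15 counts in all, were tested, 17588 of 40174 symbols. One edgeR 4.0.16 model (R 4.3.3, TMM scaling, robust quasi-likelihood) with a mean per group was fitted to all 13 distinct libraries, which share 1 estimate of spread with 8 residual degrees of freedom. G-line HOM was contrasted with WT and with G-line HET, two-sided, at a threshold of 0.05 after Benjamini-Hochberg adjustment of all tested genes together. Log2 fold changes are given ± SE. Counting limits at these depths cover counting error only. The fit was tested on simulated data.

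The lists and rules were chosen with earlier results of these data known. The rule named genes in 4 ways. It took called genes with groups that did not overlap and a mean of at least 20 CPM, the 12 highest and 12 lowest. It took up to 6 called and 3 other members of each list by adjusted p, a fixed set of remodelling genes, and markers by library. A further 50 named list members were chosen after their values were seen. Alternatives were DESeq2 1.42.0, RLE factors, library totals, 2 other filters, a fit of the compared groups alone and a replicate block. Others were tests without the mitochondrial ribosomal RNAs and sex-linked genes, and 3 treatments of the shared pair. Libraries with Myl7 at 10 CPM or more, or Arntl at 20 CPM or more, were also omitted. Each WT, G-line HOM or G-line HET library was left out in turn, but no single A-line library. For named genes and lists against WT, only WT and G-line HOM libraries were left out singly. Promoters came from RefSeq (GRCm38.p6), matched by symbol for 13184 tested genes.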

Additional observations from a re-analysis of the deposited data

How the results depend on the processing

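The 4640 genes called between G-line HOM and WT became 2233 without the shared pair and 1151 with the pair as A-line HOM, where the lone WT library is assumed to vary like the others. Leaving out single libraries gave 3316 to 4761, and 2798 of the 4640 kept the call whichever WT or G-line HOM library was left out. The genes named in the text were picked partly by small adjusted p or large change. Their counts are therefore no measure of all called genes. Of the 191 called genes named in the text, 179 passed without the pair, 102 with it as A-line HOM, 190 in DESeq2, 181 without any 1 library and 187 with all 15 columns as labelled, where Atf3 (0.188), Cacna1h (0.115), Mybpc3 (0.0614) and Nppa (0.0736) did not. Of 64 gene and marker lists, the calls in 55 were fewer by over 1.5 times with the pair as A-line HOM, in 41 without the pair and in up to 16 without a single library. The 2575 genes called between G-line HOM and G-line HET became 1251 with the pair as A-line HOM, 1528 without libraries holding Myl7 and 1504 without libraries of high Arntl. Leaving out single libraries gave 1166 (without G-line HOM replicate 2) to 2798, with 1316, 1331 and 1463 without G-line HET replicates 1, 2 and 3 and 1400 without G-line HOM replicate 1. The causes were not tested. With library totals in place of TMM, 69.9% of the calls against G-line HET were higher, beside 42.5%.

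Changes of sign among named genes were seen in Rbm20 and Ppargc1a, which were not called under any of these settings. Rbm20 turned to 0.15 with library totals, 0.02 without libraries of high Arntl and -0.08 to 0.03 without single libraries (0.02, 0.01, 0.03 and 0.01 without G-line HOM replicates 1 and 3 and WT replicates 1 and 3). Ppargc1a turned to -0.06 under both treatments of the shared pair and lay between -0.03 (without G-line HOM replicate 3) and 0.22 without single libraries.

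Replicate numbers did not pair the libraries. Deviations of same-numbered libraries from their group means correlated at -0.258, -0.14 and 0.0901 between G-line HOM and WT and at 0.078, -0.0282 and -0.00726 between G-line HOM and G-line HET. With the replicate number as a block, 4143 and 1992 genes were called.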

Other observations

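Secreted factors of vessels and growth also differed between G-line HOM and WT. Edn1, the main endothelin gene, was at 2.83, 3.29 and 3.46 CPM in WT and 8.13, 9.38 and 6.57 CPM in G-line HOM (1.33 ± 0.23, adjusted p = 0.000772). Edn3, another endothelin gene, was at 1.63, 1.32 and 0.834 CPM in WT and 0.0626, 0.0942 and 0.329 CPM in G-line HOM, so these related genes moved in opposite directions (-3.01 ± 0.53, adjusted p = 0.000858). Igf1, a growth factor made largely by non-muscle cells in the heart, rose from 16.7–27.9 to 39.8–51.8 CPM (1.10 ± 0.23), and Fgf16, a growth factor of heart muscle, fell from 10.1–13.6 to 2.82–6.06 CPM (-1.50 ± 0.25). Osmr, the receptor of oncostatin M, rose by 0.63 ± 0.13.

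Of 23 genes of the TEAD, YAP and calcineurin-NFAT pathways, 6 rose and 3 fell, and 1 rose and 2 fell without the shared pair. Without replicate 1 of WT or without replicate 1 or 2 of G-line HOM, 1 fell. Vgll3, a cofactor of TEAD, was at 6.40, 6.55 and 6.55 CPM in WT and 22.2, 17.3 and 13.6 CPM in G-line HOM (1.45 ± 0.25, adjusted p = 0.000954). Vtn, a secreted adhesion protein used here as a pericyte marker, was at 25.4, 28.2 and 31.4 CPM in WT and 9.48, 10.9 and 11.6 CPM in G-line HOM (-1.42 ± 0.18, adjusted p = 0.000122), and the summed pericyte markers were at 1530 to 1732 CPM in WT and 928 to 1145 CPM in G-line HOM.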
